A study of Mus musculus with 9 samples.

Results

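The genes described here are 9 receptors of the chemokine receptor family measured in splenic dendritic cells (DCs) of mice: Ccr1, Ccr2, Ccr6, Cxcr3, Cxcr4, Cxcr5, Cx3cr1, Ackr3 and Ccrl2. They were taken by gene symbol from a table of 54532 genes and are part of a list of 23 chemokine receptors analysed here; Ccr7 and Xcr1 are among the other 14 and appear only for comparison. Every receptor was found once, at the same start and end as in the GENCODE M21 annotation of GRCm38, and each is a protein-coding gene.

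Chemokine receptors are seven-pass membrane proteins that sense gradients of small secreted proteins and, through Gi-type G proteins, turn the gradient into directed movement. After activation they are phosphorylated by receptor kinases and bound by beta-arrestins, which end the signal and draw the receptor into the cell. Atypical members such as Ackr3 and Ccrl2 bind ligand without classical G protein signaling, and scavenge or present it. In the spleen, receptors of this family guide the placement of DCs in the red pulp, the marginal zone, the B cell follicle and the T cell zone.

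RNA-seq was carried out on cells sorted from spleens of female C57BL/6 background mice aged 6 to 8 weeks, in 3 groups of 3 samples. N-mDCs were mature conventional DCs of normal mice without leukemia. T-mDCs were mature conventional DCs and T-DCs were CD11c+MHCIIlo cells, both from mice with T cell acute lymphoblastic leukemia (T-ALL) on day 15. The leukemia was driven by a retrovirus carrying the intracellular domain of Notch1 with GFP, and GFP+ leukemia cells were passed into recipients of the C57BL/6J or C57B6.SJL strain that were not irradiated, so the host kept its own hematopoietic cells. The study's methods describe lysis of red cells, enrichment with CD11c microbeads and a final sort, and T-DCs were chosen by low surface MHCII. The sources do not say whether each sample is 1 mouse or a pool, so p-values measure the spread between these samples, which may be technical in part.

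The authors deposited FPKM, which divides the reads of a gene by its length in kilobases and by a library size. Reads on genes ran from 15360815 to 18440913 per sample, and for a gene 1 kilobase long each read added 0.0517 to 0.0659 FPKM. Itgax, which encodes CD11c, was present in every sample, at 43.0 to 152 FPKM in T-DCs, 158 to 230 FPKM in N-mDCs and 159 to 167 FPKM in T-mDCs. Of 7 DC lineage genes, 4 were lower in T-DCs than in either mature group by the test used below, among them the cytokine receptor gene Flt3 at 8.66 ± 5.88 FPKM in T-DCs against 59.2 ± 17.7 FPKM in N-mDCs (SD, n = 3). The other 3 were not called, and the list did not fall as a whole. Cd24a, also of this list, reached 1192 and 1097 FPKM in T-DC samples 2 and 3, with 30.3 in sample 1 and at most 81.6 in any mature sample. Through it the 7 genes summed to 1471 and 1240 FPKM in T-DC samples 2 and 3, above the mature maximum of 748. Summed FPKM of 10 erythroid genes was 612, 58484 and 42924 in T-DC samples 1 to 3, against at most 5364 in any other sample, and T-DC samples 2 and 3 also held the highest sums of 11 neutrophil genes, 4393 and 1552. T-mDC samples 2 and 3 were the closest pair in the data. Their chi-square per gene was 1.79 over genes with 20 reads or more but under 200, whereas any other pair from one group gave at least 5.18, and they are treated as separate samples unless stated. These are bulk samples, so fewer cells carrying a receptor and less of its RNA per cell cannot be told apart.

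Each receptor was compared between groups by limma on log2(FPKM + 1), fitted over the 12746 genes that reached 1 FPKM in at least 3 samples, with Benjamini-Hochberg adjustment and a threshold of 0.05. A log2 difference on this scale understates the change of a gene near 0. Of the 9 receptors 8 were tested, and Ackr3 fell under the filter. T-DCs expressed lower levels of 4 receptors (Ccr6, Cxcr5, Cxcr3 and Ccr2) than N-mDCs and higher levels of none, where 10.3% of all tested genes were called lower, 6.10% higher and 16.4% either way. Against T-mDCs, 3 receptors (Ccr6, Cxcr5 and Cxcr3) were lower and 1 (Cx3cr1) was higher in T-DCs, with 8.79% of all genes called lower, 5.44% higher and 14.2% either way. Between both mature groups 1 receptor, Ccrl2, was lower in T-mDCs, where 1.52% of genes were called lower, 0.690% higher and 2.21% either way. Ccr6 and Cxcr5 entered the test only through the mature groups, each with 6 of 9 samples at 1 FPKM or more, so a gene like these could pass only by being higher there, and the counts are a description of the receptors. Samples of both groups did not overlap for 1 higher and 5 lower receptors in T-DCs against N-mDCs (16.0% of all tested genes higher, 16.4% lower and 32.4% either way), for 1 higher and 3 lower in T-DCs against T-mDCs (16.8%, 18.1% and 34.9%) and for 1 higher and 4 lower in T-mDCs against N-mDCs (19.3%, 15.7% and 35.0%). Both comparisons of T-DCs use the same T-DC samples and are not independent. The shares of all tested genes given here also stand beside the counts of every other gene list in the text.

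**Figure D1:**
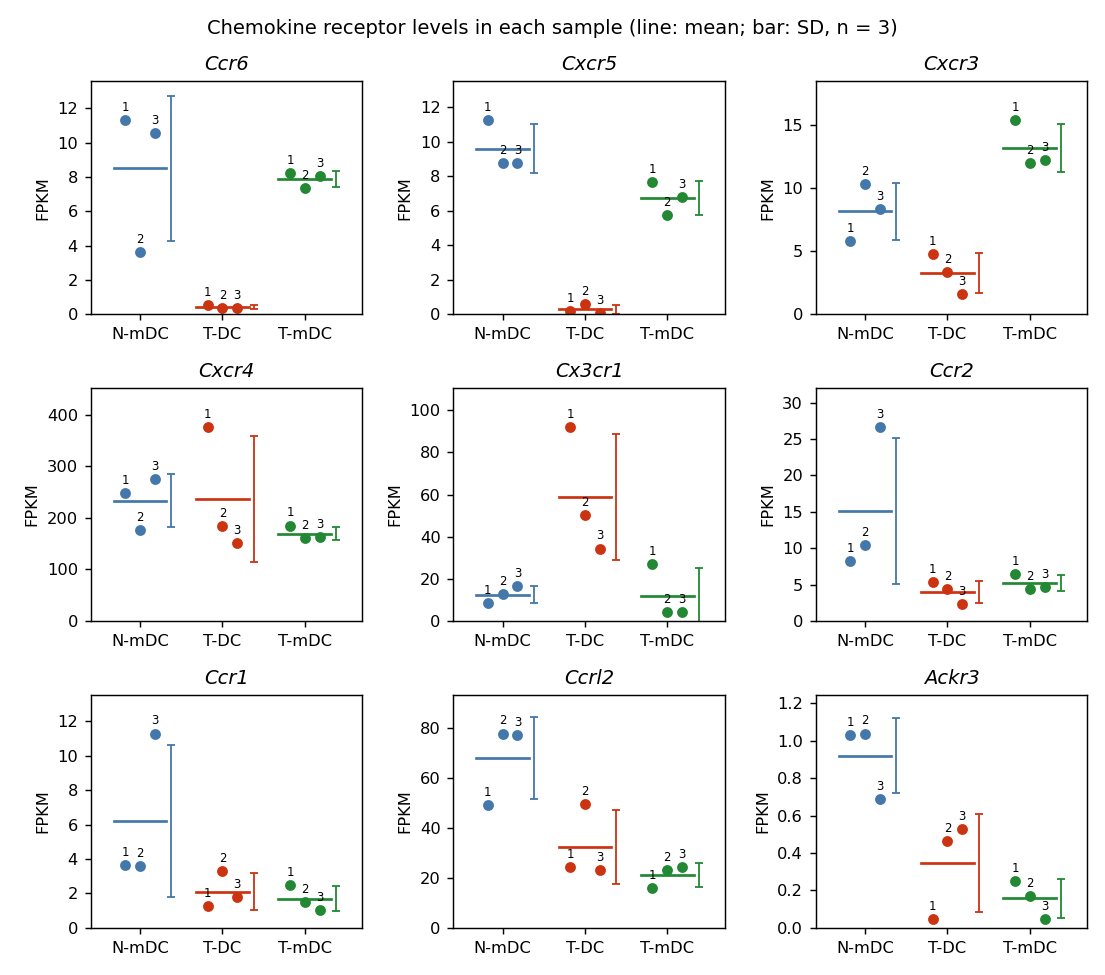
Level of each receptor in FPKM (vertical axis, from 0, with its own scale per panel) by group; points are samples, the horizontal line is the mean of 3 samples and the bar its SD, drawn no lower than 0. Ccr6 and Cxcr5 lie near 0 in the T-DC samples, Cx3cr1 is highest there, and the Cxcr4 points of the groups overlap.

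Ccr6 and Cxcr5, the receptors for Ccl20 and Cxcl13, are best known from B cells and follicular lymphocytes and are also carried by subsets of DCs, where Ccr6 marks immature stages and some cDC2. Both were close to absent in T-DCs. Ccr6 (ENSMUSG00000040899, chr17:8236043-8257141, plus strand, GRCm38) was at 11.3, 3.64 and 10.5 FPKM in N-mDC samples 1 to 3, at 8.24, 7.36 and 8.06 FPKM in T-mDCs, and at 0.529, 0.362 and 0.341 FPKM in T-DCs, which rested on 22, 13 and 12 reads. All T-DC samples lay below every sample of the mature groups, and N-mDC sample 2 was the lowest of the mature samples. The mean FPKM of Ccr6 in T-DCs was 20.7 times lower than in N-mDCs and 19.2 times lower than in T-mDCs. On the log2(FPKM + 1) scale Ccr6 fell by 2.63 against N-mDCs (SE 0.34, adjusted p = 0.00228) and by 2.66 against T-mDCs (SE 0.34, adjusted p = 0.00256). Between T-mDCs and N-mDCs the log2 difference was 0.03, with a 95% interval of -0.74 to 0.80, so a difference inside it was not detectable.

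Cxcr5 (ENSMUSG00000047880, chr9:44511787-44561877, minus strand) was at 11.2, 8.76 and 8.76 FPKM in N-mDCs, at 7.68, 5.73 and 6.79 FPKM in T-mDCs and at 0.184, 0.60 and 0.0988 FPKM in T-DCs, the last from 11, 31 and 5 reads. No T-DC sample came near the lowest mature sample, and the N-mDC samples all lay above the T-mDC samples. Mean FPKM of Cxcr5 in T-DCs was 32.6 times lower than in N-mDCs and 22.9 times lower than in T-mDCs. The log2 difference was -3.04 against N-mDCs (SE 0.20, adjusted p = 3.33e-04) and -2.59 against T-mDCs (SE 0.20, adjusted p = 9.55e-04). T-mDCs were lower than N-mDCs by a log2 difference of -0.45, with a 95% interval of -0.91 to 0.01 and an adjusted p of 0.304. Ccr6 and Cxcr5 passed the threshold in both T-DC comparisons under each of the 21 alternative settings tried. In all of these but the one with no filter, both entered the test only through the mature groups. Over the 9 samples their levels had a Pearson r of 0.95, a description only, since the samples fall into groups. At its distal end Cxcr5 shares 110 bases with Bcl9l on the opposite strand, and whether the authors counted by strand is not stated in the sources used here. Bcl9l was itself called lower in T-DCs, with log2 differences of -1.27 from N-mDCs (adjusted p = 0.0249) and -1.39 from T-mDCs (adjusted p = 0.0199).

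B cell genes were read beside these receptors. Of 11 B cell markers 10 were tested, and T-DCs expressed lower levels of 9 than N-mDCs and of 4 than T-mDCs. In T-mDCs against N-mDCs 1 was called lower, and 8 were lower without overlap of the samples, where 15.7% of all tested genes were. The median log2 difference of the B cell markers there was -1.31, while Ccr6 was at 0.03 and Cxcr5 at -0.45. None of the 11 was at 0 throughout a group. Their summed FPKM was 39.0 to 111 in T-DCs, 78.2 to 214 in T-mDCs and 282 to 351 in N-mDCs. T-mDC samples 2 and 3, at 78.7 and 78.2 summed FPKM of B cell markers, lay inside the range of T-DCs, which reached 111 through sample 2, and held 5.73 and 6.79 FPKM of Cxcr5 and 7.36 and 8.06 FPKM of Ccr6. Single B cell genes differed among themselves. Pax5 was at 3.17 and 3.12 FPKM in these T-mDC samples against at most 1.2 FPKM in T-DCs. Ms4a1 was at 3.72 and 4.42 FPKM against at most 1.94 FPKM. Fcer2a was at 2.56 and 1.79 FPKM there and at most 0.128 FPKM in T-DCs. Cd22 and Cr2 also lay above every T-DC sample there. Cd79a, at 13.35 and 13.14 FPKM there, lay inside the T-DC range, which reached 42.73 FPKM. Cd79b, Bank1, Blk and Ebf1 lay inside that range too, and Fcrla overlapped it. The part of B cell RNA in the differences of T-DCs from N-mDCs and from T-mDCs was not tested.

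**Figure D2:**
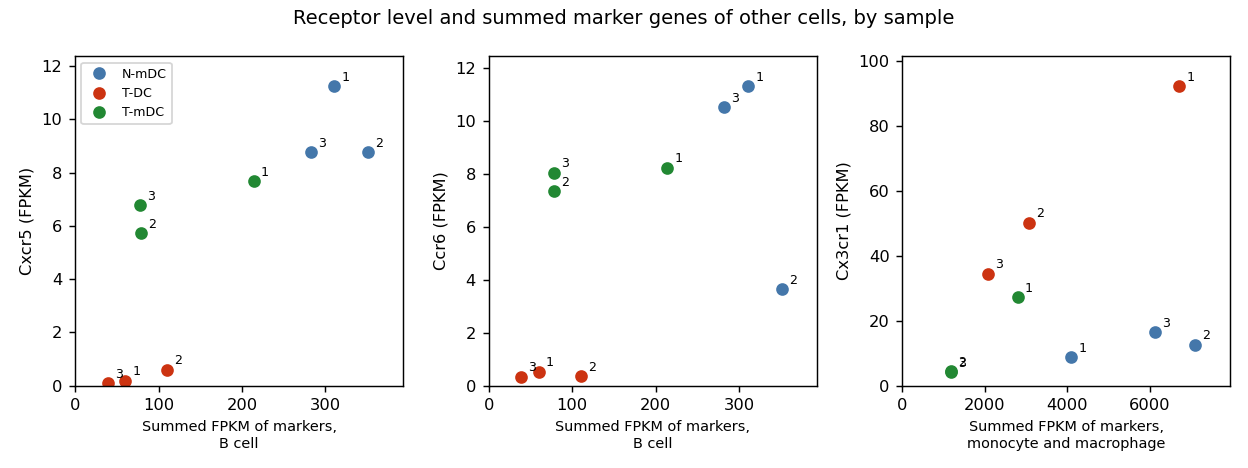
FPKM of Cxcr5, Ccr6 and Cx3cr1 (vertical axes) against the summed FPKM of 11 B cell markers (left and middle) or 18 monocyte and macrophage markers (right) on the horizontal axes, one numbered point per sample. T-mDC samples 2 and 3 have B cell sums of 78.7 and 78.2, within the range that T-DC sample 2 widens to 111, and Cxcr5 at 5.73 and 6.79 FPKM, and the 3 T-DC samples have the 3 highest Cx3cr1 levels at marker sums between 2065 and 6710.

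Promoter sequence was read for the receptors from RefSeq on GRCm38.p6, where 8 of the 9 have an entry. The 250 bases before the start of Ccr6, 1 of the receptors under 1 FPKM in all T-DC samples, and of Cxcr4, the most abundant of the 9 in every sample, are shown. Capitals mark matches, on either strand, to 1 of 7 motifs searched: AP-1 (TGANTCA), PU.1 (GAGGAAGT), E-box (CAGGTG), RUNX (TGTGGT), CRE (TGACGTCA), TATA box (TATAAA) and GC box (GGGCGG).
Ccr6, chr17:8235793-8236042, plus strand: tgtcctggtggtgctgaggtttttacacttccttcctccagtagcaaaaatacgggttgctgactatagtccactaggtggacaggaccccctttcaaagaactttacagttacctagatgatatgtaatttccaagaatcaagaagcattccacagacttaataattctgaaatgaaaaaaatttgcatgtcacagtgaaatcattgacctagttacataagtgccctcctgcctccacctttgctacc
Cxcr4, chr1:128592300-128592549, minus strand: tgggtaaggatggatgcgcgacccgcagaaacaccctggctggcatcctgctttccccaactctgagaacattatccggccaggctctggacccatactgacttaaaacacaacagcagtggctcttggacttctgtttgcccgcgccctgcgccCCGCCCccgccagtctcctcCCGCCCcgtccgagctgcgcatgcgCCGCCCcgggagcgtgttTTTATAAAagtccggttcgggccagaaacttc
RefSeq lists 2 starts for Ccr6, and only the window before the outermost was read. This window of Ccr6 had a GC content of 41.2% and held none of the 7 motifs. That of Cxcr4 had a GC content of 61.2%, against a median of 52% over 27025 promoters, with GC boxes 95, 75 and 50 bases before the start and a TATA box 30 bases before it, which overlaps a second match on the other strand. A GC box is found in 33.0% of all these windows and a TATA box in 13.0%. The matches are letters in a window and say nothing of the factors that bind there.

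Cxcr4, the receptor for Cxcl12 that holds hematopoietic cells in the bone marrow and steers them in lymphoid tissue, was the most abundant of the 9 receptors in all samples. Cxcr4 (ENSMUSG00000045382, chr1:128588199-128592293, minus strand) was at 248, 176 and 275 FPKM in N-mDCs, at 376, 184 and 151 FPKM in T-DCs and at 185, 161 and 162 FPKM in T-mDCs. T-DC sample 1 was the highest of all samples and T-DC sample 3 the lowest, so the groups overlapped in each comparison. The log2 difference of T-DCs was -0.07 against N-mDCs, with a 95% interval of -0.84 to 0.70 (adjusted p = 0.911), and 0.37 against T-mDCs, with a 95% interval of -0.40 to 1.14 (adjusted p = 0.498). Leaving out 1 sample turned the sign of the first when it was N-mDC sample 3, T-DC sample 2 or T-DC sample 3 (0.07, 0.06 and 0.20), and of the second when it was T-DC sample 1 (-0.02). Differences inside these intervals were not detectable with 3 samples a group. T-mDCs had a log2 difference of -0.43 from N-mDCs (95% interval -1.20 to 0.34, adjusted p = 0.561).

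Ccr7, the receptor that takes mature DCs to the T cell zone, was at 11.9 ± 11.7 FPKM in T-DCs against 580 ± 286 FPKM in N-mDCs (SD, n = 3). Of the summed FPKM of the 23 receptors, Cxcr4 made up 51.5% to 69.0% in T-DCs, 13.3% to 21.8% in T-mDCs and 19.4% to 25.8% in N-mDCs. Ccr7 made up 0.647% to 6.9%, 63.6% to 75.5% and 43.3% to 67.9% of the same sums. The sum of the 23 receptors was 247 to 545 FPKM in T-DCs, 849 to 1223 FPKM in T-mDCs and 682 to 1277 FPKM in N-mDCs. These shares are given without a test.

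**Figure D3:**
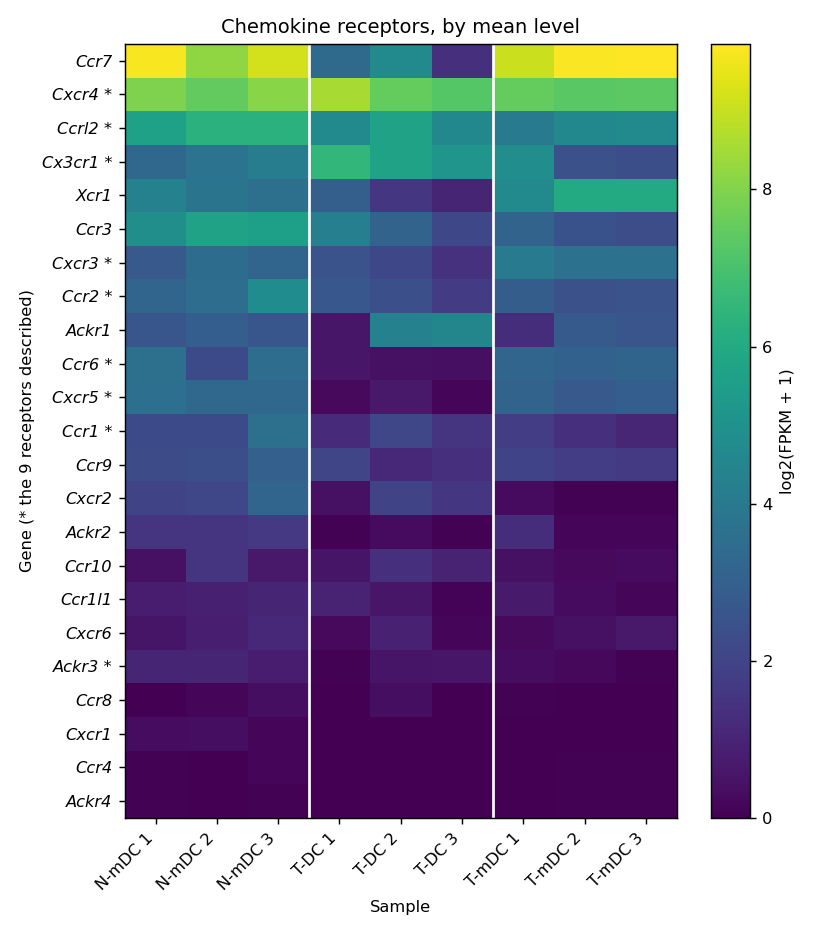
Heat map of 23 chemokine receptors (rows, ordered by mean level, with * on the 9 described) in the 9 samples (columns), coloured by log2(FPKM + 1). Ccr7 is at 295 FPKM or more in the mature samples and at 24.6 FPKM or less in T-DCs, while Cxcr4 stays between 151 and 376 FPKM throughout.

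Cx3cr1, the fractalkine receptor of monocytes, macrophages and some cDC2, was the receptor that stood higher in T-DCs. Cx3cr1 (ENSMUSG00000052336, chr9:119901616-120069879, minus strand) was at 92.2, 50.1 and 34.4 FPKM in T-DCs, at 8.72, 12.6 and 16.5 FPKM in N-mDCs and at 27.1, 4.49 and 4.19 FPKM in T-mDCs. Every T-DC sample lay above every sample of both mature groups, and T-mDC sample 1 stood well above the other two of its group. Mean FPKM of Cx3cr1 was 58.9 ± 29.9 in T-DCs, 12.6 ± 3.89 in N-mDCs and 11.9 ± 13.2 in T-mDCs (SD, n = 3). The log2 difference was 2.57 against T-mDCs (SE 0.65, adjusted p = 0.0326), a called increase, and 2.06 against N-mDCs (SE 0.65, 95% interval 0.59 to 3.53, adjusted p = 0.0603), which missed the threshold. Leaving out any 1 of N-mDC samples 2 and 3, T-DC samples 2 and 3 and T-mDC samples 2 and 3 ended the call against T-mDCs, with log2 differences of 2.15 to 2.89 and adjusted p of 0.0513 to 0.132. It was also lost with TPM (adjusted p = 0.0620), with no filter (0.0782), with only the 2 groups fitted (0.0882) and with the nearly alike T-mDC samples 2 and 3 averaged (0.131), so it passed under 11 of 21 alternatives. Without T-mDC sample 1, or with only the 2 groups fitted, the difference from N-mDCs was called, at an adjusted p of 0.0110 and 0.0281.

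Monocyte and macrophage markers were read beside Cx3cr1, and all 18 of them were tested. T-DCs expressed higher levels of 3 and lower levels of 1 than T-mDCs, and lower levels of 2 and higher levels of none than N-mDCs. None was at 0 throughout a group. Their summed FPKM was 2065 to 6710 in T-DCs, 1169 to 2794 in T-mDCs and 4097 to 7100 in N-mDCs, so N-mDCs and T-DCs overlapped. The ratio of Cx3cr1 to Csf1r, the receptor gene for macrophage colony-stimulating factor, was 0.151 to 0.195 in T-DCs, 0.0402 to 0.0623 in N-mDCs and 0.0662 to 0.134 in T-mDCs. The ratio to Adgre1, which encodes F4/80, was 0.328 to 0.437, 0.0749 to 0.126 and 0.112 to 0.287. Only these 2 of the 18 markers were used for ratios, and ratios to the others may differ. Within T-DCs the sample with the most Cx3cr1, sample 1, also had the highest sum of these markers. The part of such cells in the differences from T-mDCs and from N-mDCs was not tested.

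The span of Cx3cr1 holds other genes, and reads on both strands there may be shared. Of those that were tested, the antisense gene Gm33858 was higher in T-DCs than in T-mDCs (log2 difference 1.73, adjusted p = 0.0276), as was Gorasp1 (0.91, adjusted p = 0.0270), while Csrnp1 was lower (-1.52, adjusted p = 0.0182) and Wdr48 was not called (0.08, adjusted p = 0.811). They were chosen by position alone.

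Cxcr3, the receptor for the interferon-induced chemokines Cxcl9 and Cxcl10, was lowest in T-DCs and highest in T-mDCs. Cxcr3 (ENSMUSG00000050232, chrX:101731535-101734269, minus strand) was at 4.81, 3.35 and 1.64 FPKM in T-DCs, at 5.80, 10.3 and 8.37 FPKM in N-mDCs and at 15.4, 12.0 and 12.2 FPKM in T-mDCs. The 3 groups did not overlap, with N-mDCs between the others. The log2 difference of T-DCs was -1.80 against T-mDCs (SE 0.31, adjusted p = 0.00759), a 4.05-fold lower mean FPKM, and this passed under all 21 alternatives. Against N-mDCs it was -1.15 (SE 0.31, adjusted p = 0.0376), a 2.5-fold lower mean, and it passed under 8 of 21. Leaving out any 1 sample other than T-DC sample 1 ended the call against N-mDCs, with log2 differences of -1.35 to -0.84 and adjusted p of 0.0507 to 0.105. T-mDCs had a log2 difference of 0.66 from N-mDCs (95% interval -0.05 to 1.36, adjusted p = 0.329).

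Cxcr3 is also carried by activated T cells and NK cells. Of 14 T-lineage markers 10 were tested, and T-DCs expressed lower levels of 2 than N-mDCs and of 1 than T-mDCs. Their summed FPKM was 5.67 to 95.5 in T-DCs, 15.4 to 20.1 in T-mDCs and 45.3 to 123 in N-mDCs. Of 9 NK cell markers 7 were lower in each leukemic group than in N-mDCs, with sums of 392 to 1050 FPKM for T-DCs, 378 to 496 FPKM for T-mDCs and 837 to 1297 FPKM for N-mDCs. Tyrobp, which myeloid cells express too, made up 77.0% to 99.1% of these sums. Without it, the other 8 genes summed to 8.30 to 35.8 FPKM for T-DCs, 23.2 to 34.6 FPKM for T-mDCs and 145 to 227 FPKM for N-mDCs. No gene of either list was at 0 throughout a group. The part of T or NK cells in the differences from N-mDCs and from T-mDCs was not tested.

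Ccr2 and Ccr1 respond to chemokines that recruit monocytes, Ccr2 to Ccl2 and its relatives and Ccr1 to Ccl3, Ccl5 and others, and Ccr2 is also found on part of the cDC2. Ccr2 (ENSMUSG00000049103, chr9:124101950-124113557, plus strand) was at 8.27, 10.5 and 26.7 FPKM in N-mDCs, at 5.38, 4.35 and 2.34 FPKM in T-DCs and at 6.5, 4.47 and 4.69 FPKM in T-mDCs. N-mDC sample 3 was far above the rest, and both leukemic groups lay below every N-mDC sample and overlapped each other. T-DCs expressed lower levels of Ccr2 than N-mDCs, by a log2 difference of -1.56 (SE 0.41, adjusted p = 0.0353), a 3.77-fold lower mean FPKM. The call ended on leaving out sample 2 or sample 3 of any group, with log2 differences of -1.72 to -1.09 and adjusted p of 0.0587 to 0.108. It was also lost with TPM (0.0518), with no filter (0.0803), with only the 2 groups fitted (0.0866) and with T-mDC samples 2 and 3 averaged (0.0589), and it passed under 10 of 21 alternatives. T-mDCs had a log2 difference of -1.22 from N-mDCs (SE 0.41, adjusted p = 0.184), and T-DCs one of -0.35 from T-mDCs (95% interval -1.28 to 0.59, adjusted p = 0.605).

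Ccr1 (ENSMUSG00000025804, chr9:123962124-123968692, minus strand) was at 3.66, 3.62 and 11.3 FPKM in N-mDCs, at 1.26, 3.30 and 1.77 FPKM in T-DCs and at 2.49, 1.52 and 1.06 FPKM in T-mDCs. Again N-mDC sample 3 was highest, and all N-mDC samples lay above the other groups. No comparison of Ccr1 passed the threshold. The log2 difference was -1.10 for T-DCs against N-mDCs (95% interval -2.05 to -0.14, adjusted p = 0.102), -1.29 for T-mDCs against N-mDCs (95% interval -2.25 to -0.34, adjusted p = 0.168) and 0.19 for T-DCs against T-mDCs (95% interval -0.76 to 1.15, adjusted p = 0.785). The last turned to -0.07 without T-DC sample 2. Levels of Ccr1 and Ccr2 had a Pearson r of 0.86 over the 9 samples. Both belong to a cluster of related genes on chromosome 9, and how reads shared by similar copies were counted is not given in the sources used here. The monocyte and macrophage sums given above for Cx3cr1 were lower in all T-mDC samples than in any N-mDC sample, and 15 of the 18 genes had no overlap between these groups in that direction, where 15.7% of all tested genes did so; their part in the levels of Ccr1 and Ccr2 was not tested.

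Ccrl2 and Ackr3 are the atypical members. Ccrl2 binds chemerin, the product of Rarres2, and is induced when DCs and other myeloid cells are activated, while Ackr3 binds Cxcl12 and removes it. Ccrl2 (ENSMUSG00000043953, chr9:111054486-111057519, minus strand) was the second most abundant of the 9 in N-mDCs, at 49.2, 77.9 and 77.1 FPKM in N-mDCs, with 24.5, 49.5 and 23.0 FPKM in T-DCs and 15.9, 23.2 and 24.5 FPKM in T-mDCs. T-mDC samples all lay below N-mDC samples, and T-DC sample 2 just reached the lowest N-mDC sample. Ccrl2 was lower in T-mDCs than in N-mDCs by a log2 difference of -1.63 (SE 0.33, adjusted p = 0.0468), a 3.21-fold lower mean FPKM. Leaving out any 1 sample of either mature group ended this call, with log2 differences of -1.85 to -1.45 and adjusted p of 0.0536 to 0.178. It passed under 8 of 21 alternatives and was also lost with a pseudocount of 0.1, no filter, a filter at 5 FPKM, TPM, voom or T-mDC samples 2 and 3 averaged (adjusted p of 0.0553 to 0.152). T-DCs had a log2 difference of -1.11 from N-mDCs (95% interval -1.86 to -0.35, adjusted p = 0.0542), which was called without T-DC sample 2 (adjusted p = 0.0243), with quantile normalization (0.0371) and with voom (0.0414), and one of 0.52 from T-mDCs (95% interval -0.23 to 1.28, adjusted p = 0.326).

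Ackr3 (ENSMUSG00000044337, chr1:90203980-90216751, plus strand) was at or under 1.04 FPKM in all samples, with N-mDCs at 1.03, 1.04 and 0.691 FPKM, T-DCs at 0.050, 0.463 and 0.531 FPKM and T-mDCs at 0.253, 0.170 and 0.0487 FPKM. All N-mDC samples lay above the rest, and T-DC samples 2 and 3 lay above sample 1. Summed over each group, Ackr3 had 152 reads in N-mDCs (95% exact Poisson interval 128.8 to 178.2), 54 in T-DCs (40.57 to 70.46) and 30 in T-mDCs (20.24 to 42.83), intervals that cover counting error only. Fitted without the filter on low values, no difference of Ackr3 passed the threshold, with log2 differences of -0.52 for T-DCs against N-mDCs (adjusted p = 0.117), 0.20 for T-DCs against T-mDCs (adjusted p = 0.522) and -0.73 for T-mDCs against N-mDCs (adjusted p = 0.107).

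**Figure D4:**
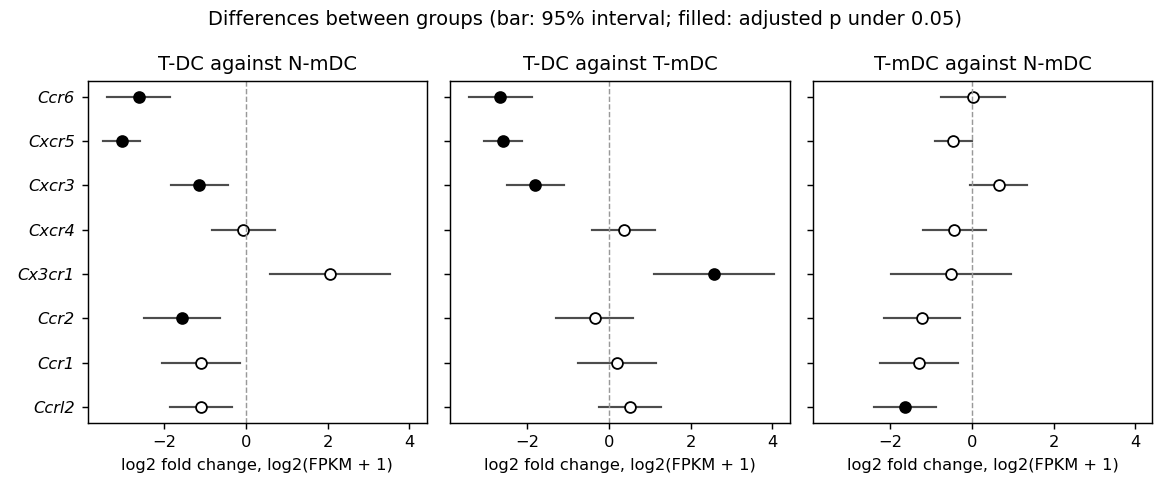
Log2 difference in log2(FPKM + 1) (horizontal axis) of the 8 tested receptors in 3 comparisons, with 95% intervals from limma; filled points have an adjusted p under 0.05. Ccr6 and Cxcr5 lie between -3.04 and -2.59 in both T-DC comparisons and at 0.03 and -0.45 between the mature groups, and Cx3cr1 lies at 2.06 and 2.57.

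In order of mean FPKM, neighbouring groups were told apart for few of the receptors. Ccr6, Cxcr5 and Cxcr3 had T-DCs as the lowest group, separated from the next by an adjusted p of 0.00256, 9.55e-04 and 0.0376, while the top and middle groups of each were not separated (0.974, 0.304 and 0.329). As stated above, Ccr6 and Cxcr5 entered the test only through the mature groups. For Cxcr4, Cx3cr1, Ccr1, Ccr2 and Ccrl2 no pair of neighbouring groups was separated, and the calls of Cx3cr1, Ccr2 and Ccrl2 were between the highest and the lowest group. Ackr3 was not ranked by a test.

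The other 14 chemokine receptors were compared in the same way. Of the 7 that were tested, T-DCs expressed lower levels of 5 than N-mDCs (Ccr3, Ccr7, Ccr9, Xcr1 and Ackr2) and of 2 than T-mDCs (Ccr7 and Xcr1), and none was called higher in either. Ccr7 had a log2 difference of -5.90 against N-mDCs (adjusted p = 0.00220) and -6.43 against T-mDCs (adjusted p = 0.00197), larger than that of any of the 9. Xcr1, the receptor of cDC1 for Xcl1, had log2 differences of -2.07 (adjusted p = 0.0319) and -3.73 (adjusted p = 0.00378). Ccr3, an eotaxin receptor, and Cxcr2, a receptor of neutrophils, were lower in T-mDCs than in N-mDCs (-2.71, adjusted p = 0.0337, and -2.31, adjusted p = 0.0357). The calls of Ccr7 passed under all 21 alternatives and that of Xcr1 against T-mDCs did too, whereas Xcr1 against N-mDCs passed under 13 and was lost on leaving out T-DC sample 2 or 3 or any 1 of the N-mDC samples. Ackr2 reached 1 FPKM in the N-mDC samples and T-mDC sample 1 alone, so it could enter the test only by being higher there. Cxcr2 reached 1 FPKM in the N-mDC samples and T-DC samples 2 and 3 alone, with T-mDCs at 0.2085, 0.0509 and 0.0535 FPKM. Cxcr2 thus entered the test only through groups where it was higher than in T-mDCs. Against N-mDCs, Ackr2 passed under 17 of 20, Ccr3 under 16 of 21 and Ccr9 under 7 of 20. The difference of Ccr3 between T-mDCs and N-mDCs and that of Cxcr2 each passed under 10 and were lost without any 1 N-mDC sample or T-mDC sample 2 or 3, that of Ccr3 also without T-DC sample 2 and that of Cxcr2 also without T-mDC sample 1. The median log2 difference of the tested receptors among the 9 was -1.13 for T-DCs against N-mDCs, that of the others -1.41 and that of all genes 0.05. Against T-mDCs the medians were -0.08, -0.31 and 0.07, and between the mature groups -0.48, -0.72 and 0.03.

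The ligands of the 9 receptors ranged from 0 to 629 FPKM in these cells. Of 17 listed ligands 10 were tested. Ccl20, the ligand of Ccr6, was listed at 0 in all samples, and Cxcl12, the ligand of Cxcr4 and Ackr3, did not exceed 0.175 FPKM. Ccl5, a ligand of Ccr1, was at 5.76, 16.0 and 4.87 FPKM in T-DCs, 471, 217 and 268 FPKM in N-mDCs and 391, 629 and 571 FPKM in T-mDCs, and Cxcl9, a ligand of Cxcr3, was at 3.07, 2.95 and 1.55 FPKM in T-DCs, 45.3, 22.9 and 24.3 FPKM in N-mDCs and 30.7, 64.8 and 62.4 FPKM in T-mDCs. T-DCs lay below every mature sample for both. Ccl5 fell by 5.11 against N-mDCs (adjusted p = 6.29e-04) and by 5.89 against T-mDCs (adjusted p = 9.55e-04) on the log2 scale, and Cxcl9 fell by 3.14 (adjusted p = 0.00165) and fell by 3.88 (adjusted p = 0.00140). Ccl4 was lower in T-DCs in both comparisons as well, and Ccl6 was higher than in T-mDCs by 2.21 (adjusted p = 0.0410). The calls of Ccl5 and Cxcl9 passed under all 21 alternatives. Those of Ccl4 each passed under 17, the one against N-mDCs being lost with no filter, with only the 2 groups fitted or without N-mDC sample 2 or 3, and the one against T-mDCs with only the 2 groups fitted, with T-mDC samples 2 and 3 averaged or without either of them. That of Ccl6 passed under 8 and was lost when any 1 sample other than T-DC sample 1 or T-mDC sample 1 was left out. No ligand was called between the mature groups.

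Of 26 genes of receptor signaling and desensitization, all tested, T-DCs expressed higher levels of 1 and lower levels of 3 than N-mDCs, and higher levels of 2 and lower levels of 2 than T-mDCs, with none called between the mature groups. Arrb1, which encodes a beta-arrestin, was at 26.1, 81.1 and 67.6 FPKM in T-DCs, 7.98, 8.92 and 8.64 FPKM in N-mDCs and 10.4, 7.0 and 7.28 FPKM in T-mDCs. All T-DC samples lay above the others. The log2 difference of Arrb1 was 2.49 against N-mDCs (adjusted p = 0.00446) and 2.56 against T-mDCs (adjusted p = 0.00437), and T-DC samples 2 and 3, with the high erythroid sums, had the highest levels. Plcb2, a phospholipase C that Gi-coupled receptors activate, was lower than in N-mDCs (-1.64, adjusted p = 0.0118), and the G protein subunit genes Gnaq (-1.46, adjusted p = 0.0186) and Gng2 (-1.14, adjusted p = 0.0482) were lower too. Against T-mDCs, Gng2 was at -1.47 (adjusted p = 0.0224), Gnaq at -1.36 (adjusted p = 0.0260) and the receptor kinase gene Grk6 at 1.11 (adjusted p = 0.0214). Arrb1 passed in both comparisons under all 21 alternatives, and so did Plcb2 against N-mDCs. Against N-mDCs Gnaq passed under 17 and Gng2 under 8, and against T-mDCs Gnaq passed under 13, and Gng2 and Grk6 under 14 each; these 5 calls were all lost without T-DC sample 2. The part of erythroid cells in the level of Arrb1 was not tested.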

How the data were processed

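The authors sorted the cells, sequenced the RNA and deposited FPKM per gene; the processing notes name mm10, and the aligner, annotation, strand setting and filters are not given in the sources used here. Whole reads were recovered as FPKM times length. Of the listed genes, 28859 were above 0 in at least 1 sample.

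Samples were grouped by their labels. The 12746 genes reaching 1 FPKM in 3 or more samples were analysed as log2(FPKM + 1) with limma 3.58.1 in R 4.3.3, with all 9 samples in 1 fit and an empirical Bayes trend. The fit was tested on simulated data. The 21 alternatives were a pseudocount of 0.1, no filter, a filter at 5 FPKM, TPM, median-of-ratios scaling, quantile normalization, 2 groups only, array weights, no trend, voom on whole reads, a replicate block, T-mDC samples 2 and 3 averaged, and leaving out each sample. Named were the 9 receptors, the called genes of fixed lists (3 per list and comparison by the rule, the others as part of small counts), and the 3 genes most like each receptor. The receptors and lists were chosen with earlier results of these data known. Promoter windows came from RefSeq. Some genes of these lists are not reported here.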

Additional observations from a re-analysis of the deposited data

How the results depend on the processing

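Among the values that the alternatives gave for the 8 tested receptors, 430 kept their direction and their side of the threshold, 47 lost a call, 15 gained one and 9 turned sign. Receptors called in T-DCs against N-mDCs numbered 4, and 2 with no filter, with TPM or with T-mDC samples 2 and 3 averaged, 3 with only the 2 groups or the replicate block, 5 with quantile normalization or voom, 6 with array weights, and 2 to 4 with 1 sample left out. Against T-mDCs there were 4, and 3 to 6 under the alternatives. Between the mature groups there was 1, and 0 with a pseudocount of 0.1, no filter, a filter at 5 FPKM, TPM, voom, the replicate block or the averaged T-mDC samples, 6 with array weights (whose estimation stopped before it converged) and 0 to 1 with 1 sample left out.

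Genes called in T-DCs against N-mDCs numbered 2096, and 1070 with only the 2 groups, 8485 with array weights, 1378 with the replicate block, 1394 with the averaged T-mDC samples and 980 to 5030 with 1 sample left out. Against T-mDCs there were 1813, and 1190 with the filter at 5 FPKM, 1036 with only the 2 groups, 9923 with array weights, 540 with the averaged samples and 541 to 4475 with 1 left out. Between the mature groups there were 282, and 107 with a pseudocount of 0.1, 111 with the filter at 5 FPKM, 99 with TPM, 850 with only the 2 groups, 3841 with array weights, 173 with voom, 78 with the replicate block, 23 with the averaged samples and 23 to 1022 with 1 left out.

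Signs turned, without a call, for Cxcr4 in T-DCs against N-mDCs (-0.458 to 0.1997 with 1 sample left out; above 0 without N-mDC sample 3, T-DC sample 2 or T-DC sample 3) and against T-mDCs (-0.0244 to 0.6333; below 0 without T-DC sample 1), for Ccr1 in T-DCs against T-mDCs (-0.02817 with TPM, and -0.06818 to 0.3982 with 1 left out, below 0 without T-DC sample 2) and for Ccr6 between the mature groups (-0.330 with array weights, and -0.426 to 0.279 with 1 left out, below 0 without N-mDC sample 2 or T-mDC sample 1). The causes were not tested.

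TPM moved the median log2 difference of all genes to -0.23 in T-DCs against T-mDCs and to 0.23 between the mature groups, and the share of called genes that were higher from 38.2% to 21.9% and from 31.2% to 49.5%; in T-DCs against N-mDCs no filter and the fit of 2 groups gave 27.0% and 24.4% in place of 37.1%. With voom the median between the mature groups was 0.13 and the share against T-mDCs 25%. Whether replicate numbers pair the samples is not stated in the sources used here. In deviations from the group means, 9 same-numbered pairs had correlations of -0.47 to 0.27, and 2 exceeded 0.1. These values cannot decide it, since other differences between the samples enter them too. With the replicate block Ccr2 and Cxcr3 in T-DCs against N-mDCs and Ccrl2 between the mature groups were no longer called (adjusted p = 0.0719, 0.0649 and 0.0555), and Ccrl2 in T-DCs against N-mDCs was (0.0443). At these depths 1 read on a gene of 1 kilobase is worth at least 0.0517 FPKM, so levels of Ccr6, Cxcr5 and Ackr3 under 1 FPKM rest on few reads.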

Other observations

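For each tested receptor, the 3 genes whose log2(FPKM + 1) had the highest Pearson r with it over the 9 samples were listed, as a description with no p, since the samples fall into groups. Nearest to Ccr6 were Mab21l3 (r = 0.99), at 0.0276 FPKM in T-DCs, 4.92 FPKM in T-mDCs and 5.37 FPKM in N-mDCs, then St8sia6 and Fam129c (0.98 each), and nearest to Cxcr5 were Fam129c and Gpat4 (0.99 each) and Apol7c (0.98). Fam129c is thus near both, at 1.03, 5.94 and 6.72 FPKM. Nearest to Cx3cr1 were Gm36161 (1.00), at 43.7, 11.8 and 11.9 FPKM in the same order, Ldlrad3 and Cyp2ab1 (0.99 each). For Ccrl2 they were Trdc (0.98), the chemokine gene Cxcl2 (0.97), at 10.8, 5.48 and 76.5 FPKM, and Cd160 (0.97). For Cxcr3 they were Epop (0.98), Klra17 and Gprc5c (0.97 each), for Cxcr4 Maml2 (0.98), Rnf149 and Zfp719 (0.97 each), for Ccr1 Fosl1 and Il18rap (0.98 each) and Cd28 (0.95), and for Ccr2 Gm26947, Tob1 and Emp1 (0.98 each).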
